A study of Bos taurus with 14 samples.

Results

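The peroxiredoxins and glutathione peroxidases measured here were PRDX1, PRDX2, PRDX3, PRDX4, PRDX5, PRDX6, GPX1, GPX3 and GPX4. They were taken as every array probe whose gene name, or bracketed symbol in its description, was 1 of these names. This gave 9 probes, 1 for each of 6 peroxiredoxins and 3 glutathione peroxidases, each printed in 1 spot, out of 15011 distinct probes in 15208 spots. The samples were bovine (Bos taurus, Holstein heifers or steers), and every animal received β-cryptoxanthin, a carotenoid that can be cleaved to vitamin A, given orally on day 0 at 0.2 mg for each kg of body weight. The groups were liver on day 7 and liver on day 0 of the same 3 animals (58, 61 and 66), and peripheral blood neutrophils on day 7 and on day 0 of 4 other animals (25, 26, 32 and 34). The age of the animals and the way liver was taken are not given in the labels. No untreated animals were analysed here, so what the carotenoid did and what else happened within the 7 days cannot be told apart.

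Both enzyme families reduce hydrogen peroxide and organic peroxides. A peroxiredoxin does so with a reactive cysteine that is itself oxidised and is then, in most members, reduced again by thioredoxin, which thioredoxin reductase recharges from NADPH. A glutathione peroxidase takes its electrons from glutathione, and in GPX1, GPX3 and GPX4 the reactive residue is selenocysteine. Liver metabolism produces peroxide in peroxisomes, in mitochondria and at the endoplasmic reticulum, whereas activated neutrophils produce superoxide and peroxide on purpose, through the NADPH oxidase that serves in killing microbes.

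Each array reports a transcript through a probe of 60 bases. The probes of PRDX2 and GPX4 are shown whole. PRDX2 gave the one difference between days among the members that passed the test. GPX4 gave a liver change that was higher in every animal with the row trend kept and with it removed. PRDX6 did so too, by larger amounts (1.42 and 1.22), and its probe is shown in part below. Capitals mark the longest run of bases that the probe shared with the probe of another member, which was 8 bases with PRDX4 for PRDX2 and 6 bases with GPX3 for GPX4.
PRDX2: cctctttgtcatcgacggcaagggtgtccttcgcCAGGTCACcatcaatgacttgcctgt
GPX4: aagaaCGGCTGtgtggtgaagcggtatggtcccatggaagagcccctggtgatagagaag
Among all 9 member probes the longest shared run was 8 bases of 60. Only exact runs between probes were compared, and the match of a probe to the transcripts of other members was not examined.

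The last 30 bases of 3 other probes are shown because they hold the hexamer AATAAA, in capitals, the usual signal for cleavage and polyadenylation of a transcript.
PRDX4: ttctcAATAAAactcagtgtgttttaccaa
PRDX5: atcttggccaaatttctgcAATAAAcactt
PRDX6: tgcttcttagggatcagcaAATAAAtcctt
The hexamer was searched in the letters of the probe as given, on 1 strand, and was found in 3 of the 9 member probes (33.3%), against 1700 of all 15011 probes (11.3%). A match of these letters is a description and does not show which site a transcript used. GC content of the member probes lay between 35.0% in PRDX4 and 55.0% in PRDX2, GPX3 and GPX4, so signals of different members were not set against each other.

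Levels are log2 of the processed signal relative to the 75th percentile of the same array, so a level of 0 equals that percentile. All 9 members were well above background on all 14 arrays. The tissue labels were borne out by marker genes. The summed signal of 15 hepatocyte markers, as a multiple of the 75th percentile, was 1299 to 1578 in day 7 livers and 979 to 1106 in day 0 livers, against 0.888 to 2.34 in day 7 neutrophils and 1.87 to 2.86 in day 0 neutrophils. Of 11 skeletal muscle markers, 9 were on the array. All 9 were higher in liver on day 7 past the test, beside 2.67% of all tested probes (7 of them with the row trend described below removed). Their summed level was 4.58 to 19.1 in day 7 livers and 0.0454 to 0.158 in day 0 livers, where MYL1, MYH1, CKM, MB and TNNC2 were not well above background on any array. The part of muscle RNA in the liver changes below was not tested. Animal 34 gave the weakest array on day 7, with a median signal of 48.2 against 100.2 to 162.9 on the other day 7 neutrophil arrays.

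Day was also tied to place on the slide. Liver and neutrophil arrays occupied 1 slide each, with all day 7 arrays in the second row of arrays and all day 0 arrays in the first, so day and place cannot be told apart, nor can tissue and slide. In liver the change between days followed the row of the spot within the array. Its median over all tested probes was 0.54 in the first 16 of the 192 rows and -0.38 in the last 16, against -0.04 in the middle rows that remain when 40 are left out at each end. For neutrophils the medians of the first, last and middle rows were -0.05, -0.09 and -0.06. PRDX1, PRDX6 and PRDX3 lie in rows 15, 25 and 33, GPX1, GPX3 and GPX4 in rows 63, 88 and 99, and PRDX4, PRDX5 and PRDX2 in rows 179, 188 and 190. Each change is therefore also given after a smooth trend along the rows was subtracted from each array ("row trend removed"). The subtraction did not bring every edge row to 0. The median liver change of all tested probes was then still -0.30 in row 15 and 0.18 in row 188, against -0.01 in row 190.

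**Figure D1:**
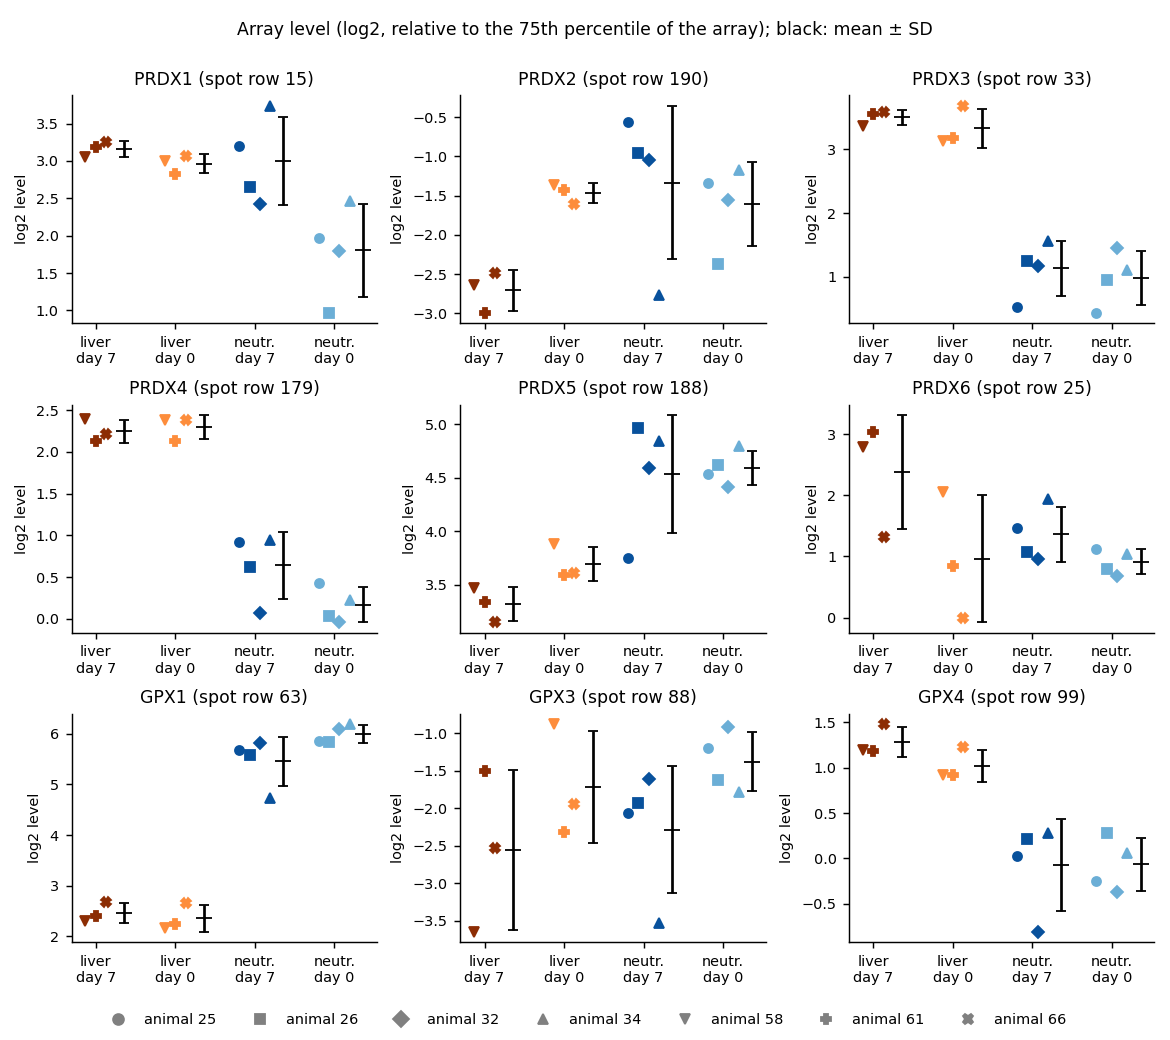
Level of each member on every array, as log2 relative to the 75th percentile of the array, with 1 panel per gene on its own axis. Symbols mark animals (3 for liver, 4 for neutrophils), and the black bar beside each group is the mean ± SD. GPX1 stands higher in neutrophils, PRDX3 and PRDX4 stand higher in liver, and PRDX2 is lower in day 7 livers than in day 0 livers.

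In liver, PRDX2 was the single member that differed between days past the test, and it was lower on day 7. PRDX6 had the largest change of the 9, upward, without passing. PRDX5 had lower values on day 7 in all 3 animals, GPX4 and PRDX1 had slightly higher ones, and PRDX3, PRDX4 and GPX1 had changes of at most 0.17 on the log2 scale. GPX3 moved in different directions in different animals. The count of 1 of 9 members called stood beside 3.98% of all 10933 probes tested in liver, of which 2.67% were higher and 1.31% lower. At an unadjusted p under 0.05 there were 4 members, against 17.9% of all probes. The median change of the members was 0.11, against -0.04 over all tested probes.

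PRDX2, a cytosolic thioredoxin-dependent peroxiredoxin that is abundant in red blood cells, had levels of -2.64, -2.99 and -2.48 in day 7 livers of animals 58, 61 and 66, against -1.36, -1.42 and -1.61 in the same livers on day 0. All 3 day 7 values lay below all 3 day 0 values. The mean level was -2.70 ± 0.26 on day 7 and -1.46 ± 0.13 on day 0 (SD, n = 3 each). The log2 change was -1.24 ± 0.16 (SE of the limma fit), a level 2.36-fold lower, with an adjusted p of 0.0342. No other member fell past the test.

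The PRDX2 probe lies in row 190, near the edge where the whole array showed lower values on day 7. Of the 319 tested probes within 3 rows of it, 107 passed the test (33.5%), 105 of them lower, and the median change there was -0.72. GAPDH, a glycolytic enzyme printed in 100 spots across the array, had a median change of -0.93 in its 5 spots within 8 rows of the PRDX2 row, against 0.04 in 12 spots around row 99. Once the row trend was removed, the PRDX2 changes were -0.36, -0.65 and 0.06 in animals 58, 61 and 66. The fitted change was then -0.32 with an adjusted p of 0.438 by limma, so the call ended, and 0.165% of all probes were called under that setting. When any 1 animal was left out and the trend kept, the change stayed between -1.42 and -1.08, with adjusted p from 0.055 to 0.22 by limma, past the threshold in no case. Summed red cell markers (8 of 16 on the array) were 3.24 to 3.88 in day 7 livers and 3.70 to 4.06 in day 0 livers, with HBB, SLC4A1 and EPB42 not well above background on any liver array. Summed neutrophil markers (10 of 13 on the array) were 2.89 to 3.46 in day 7 livers and 4.201 to 10.8 in day 0 livers, with no overlap. Of the 7 tested, none passed the limma test, beside 3.98% of all tested probes, and 5 did at an unadjusted p under 0.05, beside 17.9%. CATHL1 and PGLYRP1 were not well above background on any liver array. The part of these cells in the PRDX2 change was not tested. In such bulk samples, fewer cells of a type and less RNA per cell cannot be told apart.

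PRDX6 is the member with a single catalytic cysteine. It uses glutathione rather than thioredoxin, reduces phospholipid peroxides and also has phospholipase activity. Its levels were 2.79, 3.04 and 1.32 in day 7 livers of animals 58, 61 and 66, against 2.06, 0.84 and -0.01 in day 0 livers. Every animal had the higher value on day 7, although the groups overlapped because animals differed widely on both days. The changes were 0.73 in animal 58, 2.20 in animal 61 and 1.33 in animal 66, with a fitted change of 1.42 ± 0.30 (SE) and an adjusted p of 0.0902 by limma. PRDX6 exceeded 99.2% of the 396 tested probes within 3 rows of its own row, whose median change was 0.11. After removal of the row trend its changes were 0.54, 1.90 and 1.21, and the fit gave 1.22 with an adjusted p of 0.158 by limma. The direction therefore held in all 3 animals under both settings, without passing the test under either.

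PRDX5, an atypical thioredoxin-dependent peroxiredoxin found in mitochondria, peroxisomes and cytosol, had levels of 3.47, 3.34 and 3.15 in day 7 livers, against 3.88, 3.59 and 3.61 in day 0 livers. The days did not overlap. PRDX2 and PRDX5 were the members without overlap between the liver days, both lower on day 7, where 15.3% of all tested probes did not overlap, 7.34% higher and 7.95% lower. The fitted change of PRDX5 was -0.38 ± 0.10 with an adjusted p of 0.16 by limma. Its neighbours within 3 rows had a median change of -0.56, lower than its own, and with the row trend removed its change turned to 0.39, higher in all 3 animals (adjusted p = 0.197 by limma). The median of all tested probes in its row, 188, was then 0.18. The direction of PRDX5 in liver was thus set by whether the row trend was kept.

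PRDX1, the most widely expressed cytosolic peroxiredoxin, showed the opposite turn from the other edge of the array. Its levels were 3.05, 3.19 and 3.25 in day 7 livers and 2.995, 2.83 and 3.07 in day 0 livers. The fitted change was 0.20 ± 0.11 with the trend kept (adjusted p = 0.461 by limma) and -0.35 with it removed (adjusted p = 0.273 by limma), with every animal higher in the first case and every animal lower in the second. With the trend removed, the median of all tested probes in row 15 was -0.30, so the PRDX1 change was near that of its row. PRDX3, the mitochondrial peroxiredoxin, changed by 0.17 ± 0.13 and, with the trend removed, by -0.01. PRDX4, which works in the endoplasmic reticulum and is also secreted, changed by -0.05 ± 0.10 and, with the trend removed, by 0.20. Neither passed the test, with adjusted p of 0.588 for PRDX3 and 0.846 for PRDX4 by limma.

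Among the glutathione peroxidases, whose probes lie in the rows where the liver change was near 0, none changed past the test. GPX4, which reduces peroxidised phospholipids in membranes and protects cells from ferroptosis, had levels of 1.20, 1.18 and 1.48 in day 7 livers, against 0.92, 0.92 and 1.23 in day 0 livers. Its changes of 0.28, 0.26 and 0.25 in animals 58, 61 and 66 were the most alike of any member with the row trend kept, with an SD of 0.015. The fitted change was 0.26 ± 0.09, with an adjusted p of 0.258 by limma, and 95.8% of the 425 probes within 3 rows lay below it. Removal of the row trend left changes of 0.33, 0.14 and 0.17, still higher in each animal, with an adjusted p of 0.419 by limma. Their SD was then 0.104, above those of PRDX4 (0.056), GPX1 (0.084) and PRDX5 (0.102).

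GPX1, the cytosolic enzyme that reduces hydrogen peroxide, had levels of 2.30 to 2.68 in day 7 livers and 2.17 to 2.65 in day 0 livers. Its fitted change was 0.11 ± 0.10, with a 95% interval from -0.15 to 0.37. GPX3, the secreted form found in blood plasma and made largely in the kidney, varied most between animals. Its levels were -3.64, -1.51 and -2.52 in day 7 livers of animals 58, 61 and 66, and -0.88, -2.32 and -1.94 in day 0 livers. The changes were -2.76 in animal 58, 0.81 in animal 61 and -0.59 in animal 66. The fitted change of -0.84 ± 0.69 had an adjusted p of 0.604 by limma and became 0.11 without animal 58.

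**Figure D2:**
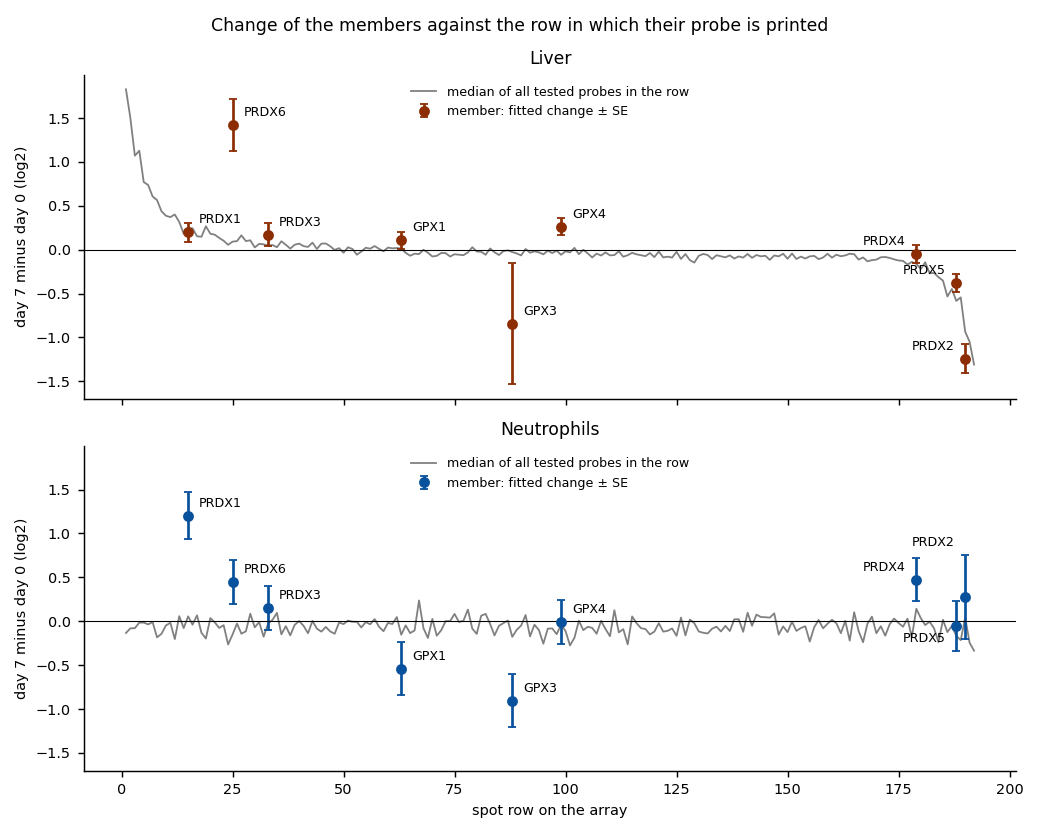
Fitted change between days (day 7 minus day 0, log2, ± SE) of each member against the row of its spot, in liver (top) and neutrophils (bottom), with the median change of all tested probes in each row as a grey line. In liver PRDX1, PRDX5 and PRDX2 follow the grey line near the edges of the array and PRDX6 lies well above it, and in neutrophils the line stays near 0.

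In neutrophils no member passed the test between days. PRDX1 had the largest change, with higher values on day 7 in all 4 animals. PRDX4 and PRDX6 were also higher in all 4 animals by smaller amounts, and GPX1 and GPX3 were lower in all 4. The 0 of 9 members called stood beside 0.0% of the 9449 probes tested by limma. At an unadjusted p under 0.05 there were 1267 probes (13.4%), among them the 2 members PRDX1 and GPX3. The members' median change was 0.15, against -0.07 over all tested probes.

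PRDX1 had levels of 3.20, 2.65, 2.43 and 3.74 in day 7 neutrophils of animals 25, 26, 32 and 34, against 1.97, 0.97, 1.80 and 2.47 in day 0 neutrophils. The groups overlapped in the value of animal 34 on day 0, which lay just above the value of animal 32 on day 7. Within animals the changes were 1.22, 1.68, 0.63 and 1.27, so each animal had more PRDX1 signal on day 7. The fitted change was 1.20 ± 0.27 with a 95% interval from 0.57 to 1.84, a 2.30-fold higher level, and an unadjusted p of 0.00284 by limma became 0.301 after adjustment over all probes. The change was 1.15 with the row trend removed (adjusted p = 0.287 by limma). It ranged from 1.04 to 1.39 when each animal was left out in turn. Among the 346 probes within 3 rows, 97.98% lay below PRDX1, and their median change was -0.05.

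Markers of other blood cells moved in the same samples. The 10 T and cytotoxic cell markers on the array (of 12) summed to 23.1 to 104.9 in day 7 neutrophils and 10.9 to 37.2 in day 0 neutrophils, and 8 of the 10 had a positive change. The 4 B cell markers on the array (of 7) summed to 7.44 to 12.4 on day 7 and 3.28 to 6.43 on day 0, with no overlap, and all 4 had a positive change. Monocyte and macrophage markers (5 of 9 on the array) summed to 15.9 to 25.2 on day 7 and 17.6 to 26.4 on day 0. Of these 5, 3 had a positive change, while CD68, the brightest, changed by -0.22. None of these markers passed the test between days, beside 0.0% of all tested probes. At an unadjusted p under 0.05 by limma there were 5 T and cytotoxic, 2 B cell and 0 monocyte and macrophage markers, beside 13.4% of all tested probes. The median changes of these lists were 0.63, 0.87 and 0.38, against -0.07 over all tested probes. Every T and B cell marker was well above background on at least 1 array of each day. The part of these cells in the PRDX1 values was not tested.

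GPX1 was lower on day 7 in each neutrophil sample, at 5.67, 5.58, 5.83 and 4.73 in day 7 samples of animals 25, 26, 32 and 34, against 5.85, 5.85, 6.10 and 6.18 in day 0 samples. It was the 1 member of 9 whose neutrophil days did not overlap, where 9.38% of all tested probes did not overlap, 4.85% higher and 4.53% lower. The drop was largest in animal 34, the animal with the weak array. The fitted change was -0.54 ± 0.30 (adjusted p = 0.444 by limma) with all 4 animals and -0.24 without animal 34. GPX3 levels were -2.06, -1.93, -1.61 and -3.53 in day 7 neutrophils and -1.20, -1.63, -0.91 and -1.78 in day 0 neutrophils. Its fitted change was -0.90 ± 0.30 (adjusted p = 0.327 by limma) and -0.62 without animal 34, lower in each animal in both cases.

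PRDX2 split the neutrophil animals. Its changes were 0.78, 1.42 and 0.51 in animals 25, 26 and 32 and -1.60 in animal 34, where the day 7 level of -2.77 was the lowest of the 8 neutrophil values. The fitted change was 0.28 ± 0.48 with all animals and 0.90 without animal 34, past the adjusted threshold in neither case (adjusted p = 0.804 and 0.243 by limma). Red cell markers summed to 9.39 to 13.9 in day 7 neutrophils and 9.64 to 12.1 in day 0 neutrophils, with HBB, HBA and SLC4A1 not well above background on any neutrophil array.

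The other members gave small changes in neutrophils. PRDX4 changed by 0.47 ± 0.24 (adjusted p = 0.423 by limma), with values of 0.07 to 0.94 on day 7 and -0.03 to 0.43 on day 0. PRDX6 changed by 0.45 ± 0.25 (adjusted p = 0.442 by limma), within a range of 0.97 to 1.94 on day 7 and 0.69 to 1.13 on day 0. PRDX3, PRDX5 and GPX4 changed by 0.15 ± 0.25, -0.05 ± 0.28 and -0.00 ± 0.25, with animals on both sides of 0. Their 95% intervals, from -0.44 to 0.74 for PRDX3, -0.72 to 0.61 for PRDX5 and -0.60 to 0.59 for GPX4, leave room for changes of about the size seen in PRDX4 and PRDX6.

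**Figure D3:**
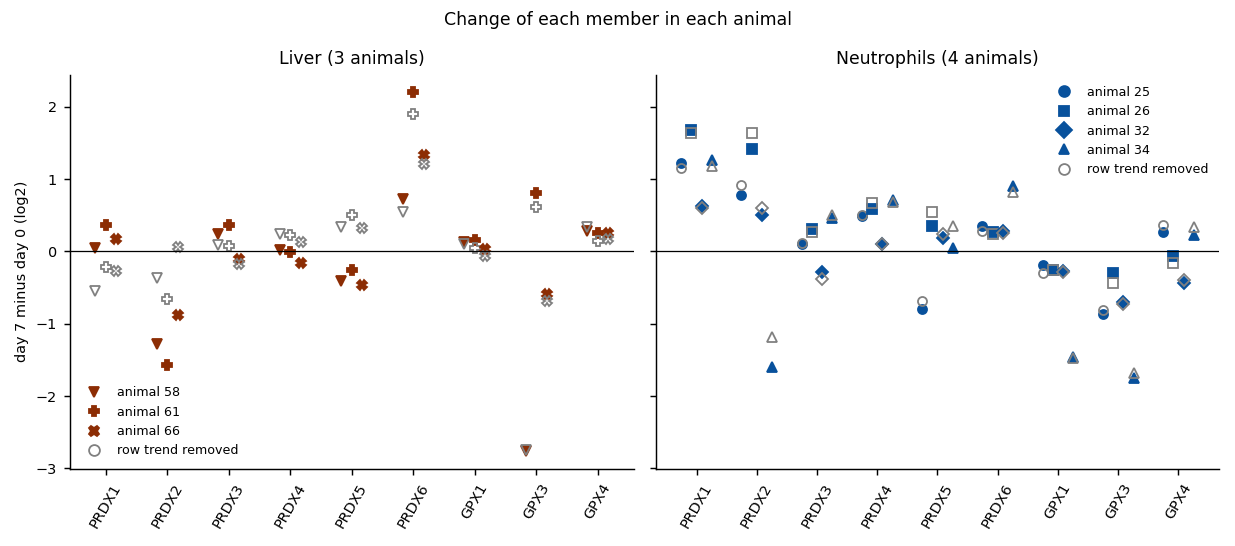
Day 7 minus day 0 change (log2) of each member in each animal, for liver (3 animals, left) and neutrophils (4 animals, right). Filled symbols are the changes as measured and open grey symbols those with the row trend removed. In liver the open symbols of PRDX1 and PRDX5 lie on the other side of 0 from the filled ones, and in neutrophils all 4 PRDX1 changes are positive in both forms.

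Counted by direction, 4 of the 9 members were higher in all 3 livers (PRDX1, PRDX6, GPX1 and GPX4) and 2 were lower in all 3 (PRDX2 and PRDX5), beside 40.4% of all tested probes that moved the same way in every liver, 17.8% higher and 22.7% lower. In neutrophils 3 were higher in all 4 animals (PRDX1, PRDX4 and PRDX6) and 2 were lower in all 4 (GPX1 and GPX3), beside 24.5% of all tested probes, 11.2% higher and 13.3% lower. PRDX1 and PRDX6 were thus higher on day 7 in every animal of both tissues as measured, although PRDX1 in liver was lower in all 3 animals with the row trend removed. Under that setting the members higher in all 3 livers were PRDX4, PRDX5, PRDX6 and GPX4, beside 11.6% of all tested probes, and PRDX1 was the one member lower in all 3, beside 27.7%. The median liver change of all tested probes was then -0.30 in row 15, that of PRDX1, and 0.18 in row 188, that of PRDX5.

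Whether the change differed between liver and neutrophils was tested in 1 model over all 14 arrays. None of the 9 members passed, beside 1.14% of 8841 probes, and 3 did at an unadjusted p under 0.05, beside 13.5% of all probes. For PRDX1 the liver change minus the neutrophil change was -1.004 ± 0.31 (SE), with an adjusted p of 0.186 by limma, and -1.50 with an adjusted p of 0.132 when the row trend was removed. The latter value includes what remained in its row in liver, a median of -0.30. For PRDX6 it was 0.97 ± 0.38 (adjusted p = 0.31 by limma). For PRDX2 it was -1.52 ± 0.65 (adjusted p = 0.359 by limma), and without animal 34 it was -2.14 with an adjusted p of 0.0169. That value keeps the row trend of the liver arrays. With the row trend removed and all animals kept, the PRDX2 difference was -0.81 (adjusted p = 0.633 by limma).

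Liver was next compared with neutrophils. On day 0, 6 of the 9 members differed past the test, 4 higher and 2 lower in liver. The background was high, since 83.1% of 11494 probes passed (39.7% higher and 43.5% lower), so the share of members called was below that of all probes. The groups did not overlap for the same 6 members, against 82.5% of all probes (39.2% higher and 43.3% lower). Liver was higher for PRDX3, PRDX4, PRDX1 and GPX4, and neutrophils were higher for GPX1 and PRDX5.

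GPX1 had the widest difference. Its levels were 2.17, 2.24 and 2.65 in day 0 livers, against 5.85, 5.85, 6.10 and 6.18 in day 0 neutrophils. The liver level was lower by 12.5-fold, a log2 difference of -3.64 ± 0.18 (SE; adjusted p = 3.74e-07 by limma). On day 7 the difference was -2.99 (adjusted p = 5.18e-05 by limma). PRDX5 was the other member with the lower level in liver, with a difference of -0.90 ± 0.16 on day 0 (adjusted p = 0.000976 by limma) and of -1.22 on day 7 (adjusted p = 0.0114). Its probe also lay in the edge rows lowered in day 7 livers. With the row trend removed, its day 7 means were 3.84 in liver and 4.44 in neutrophils. The day 7 values then overlapped, at 3.82 to 3.87 in liver and 3.70 to 4.89 in neutrophils.

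PRDX3 had levels of 3.13, 3.18 and 3.69 in day 0 livers, against 0.43, 0.94, 1.45 and 1.098 in day 0 neutrophils, with no overlap. It was 5.12-fold higher in liver, with a log2 difference of 2.36 ± 0.27 (adjusted p = 4.97e-05 by limma), and the difference was 2.38 on day 7. PRDX4 had levels of 2.38, 2.13 and 2.38 in day 0 livers, against 0.43, 0.04, -0.03 and 0.23 in day 0 neutrophils. It was 4.39-fold higher in liver on day 0, with a log2 difference of 2.13 ± 0.17 (adjusted p = 6.3e-06 by limma), and the difference was 1.61 on day 7. GPX4 was 2.13-fold higher in liver on day 0, with a log2 difference of 1.09 ± 0.20 (adjusted p = 0.00108 by limma), and the difference was 1.36 on day 7. All of PRDX3, PRDX4 and GPX4 passed the test on both days.

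PRDX1 passed on day 0 alone. On that day it was 2.24-fold higher in liver, by 1.16 ± 0.32 on the log2 scale (adjusted p = 0.00963 by limma). On day 7 its liver level of 3.16 ± 0.10 (SD, n = 3) stood beside 3.003 ± 0.59 in neutrophils (SD, n = 4), a difference of 0.16 with a 95% interval from -0.64 to 0.96 (adjusted p = 0.703 by limma). PRDX2 gave the reverse order of days, with a difference of 0.15 ± 0.29 on day 0 (adjusted p = 0.65 by limma) and of -1.37 on day 7 (adjusted p = 0.0392), where the liver probe lay in the lowered edge rows. PRDX6 and GPX3 did not pass on either day, with differences of 0.05 ± 0.43 and -0.34 ± 0.36 on day 0. On day 7, 3 members were higher and 3 lower in liver past the test, beside 69.0% of all probes (34.0% higher and 35.0% lower), and 3 members lay wholly above and 2 wholly below neutrophils, beside 69.3% of all probes (33.8% and 35.5%). The 2 wholly below were GPX1 and PRDX5, and PRDX5 overlapped once the row trend was removed. Without animal 34 on day 7, PRDX6 also passed, at 1.21 (adjusted p = 0.0428 by limma), beside 77.0% of all probes.

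**Figure D4:**
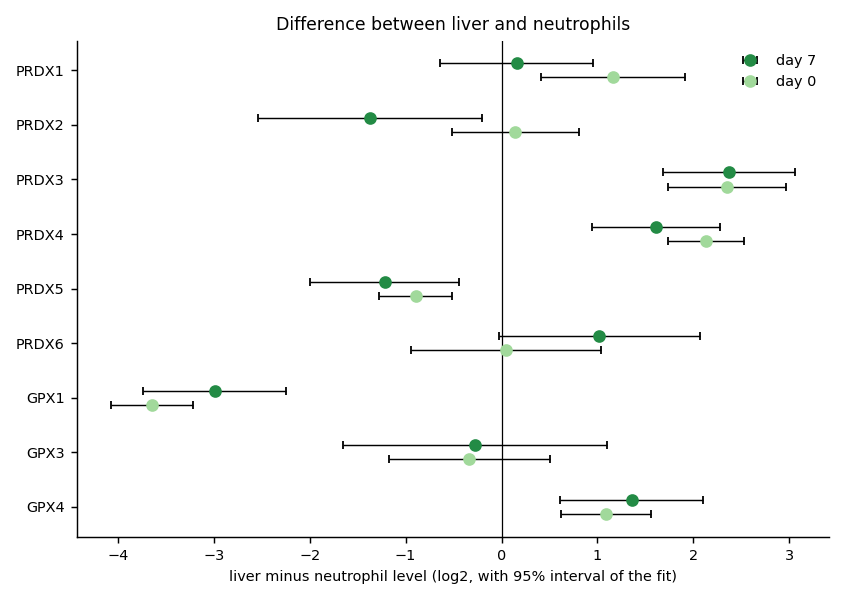
Liver minus neutrophil level of each member (log2) with the 95% interval of the fit, on day 7 (dark) and on day 0 (light), from 3 liver and 4 neutrophil arrays per day. GPX1 and PRDX5 lie left of 0 and PRDX3, PRDX4 and GPX4 right of 0 on both days, whereas PRDX2 changes side between days and PRDX1 lies right of 0 on both, with an interval that spans 0 on day 7.

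In the order of the 4 group means, PRDX3, PRDX4 and GPX4 had both liver groups above both neutrophil groups, and GPX1 and PRDX5 had both neutrophil groups above both liver groups, in each case by more than the larger SD of the neighbours at the step between tissues. At that step the ranges overlapped for PRDX5 alone of these 5. For PRDX6 and GPX3 the ranges of every pair of neighbours overlapped. For PRDX1 the day 0 neutrophils stood lowest, 1.16 below day 0 livers, while day 7 livers, day 7 neutrophils and day 0 livers lay within 0.20 of each other and overlapped. For PRDX2 the day 7 livers stood lowest, 1.096 below day 0 neutrophils, although their range overlapped that of day 7 neutrophils. The other 3 groups overlapped each other. The PRDX2 probe lies in row 190. With the row trend removed, its means were -2.04 in day 7 livers and -1.92 in day 0 neutrophils.

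The genes that supply both families with electrons were counted in the same way. Of 21 listed thioredoxin and glutathione partners, 14 were on the array. On day 0, 13 of them were tested, and 5 were higher and 4 lower in liver, beside 83.1% of all probes called, with a median difference of -0.16 against -0.12 over all probes. NADPH supply was divided. NNT, the mitochondrial transhydrogenase, was higher in liver by 4.13 ± 0.32, and PGD, an enzyme of the pentose phosphate pathway, was lower, with a difference of -4.42 ± 0.23 (adjusted p = 5.11e-06 and 4.05e-07 by limma). TXN (thioredoxin) was higher in liver by 1.96 and TXNRD2, the mitochondrial thioredoxin reductase, by 2.10, whereas TXNRD1, the cytosolic reductase, was lower, with a difference of -1.68.

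Between days, 1 of 12 tested partners changed past the test in liver, beside 3.98% of all tested probes. GCLM, a subunit of the enzyme that makes the glutathione precursor, was higher by 1.59 ± 0.17 (adjusted p = 0.0217 by limma). Its probe lies in row 4, and with the row trend removed its change was 0.21 (adjusted p = 0.714 by limma). The list's median change was -0.04 in liver. In neutrophils 0 of 12 passed the limma test, beside 0.0% of all tested probes, and 0 at an unadjusted p under 0.05, beside 13.4%. The median there was -0.12. SESN2, a sestrin, had the largest neutrophil change at 0.94 (adjusted p = 0.497 by limma).

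Of 13 other enzymes acting on peroxide, superoxide or oxidised methionine, 7 were on the array. On day 0, 3 were higher and 4 lower in liver, again beside 83.1% of all probes. CAT, the peroxisomal catalase, was higher in liver by 7.18 ± 0.20 and SOD1, the cytosolic superoxide dismutase, by 3.81 ± 0.18, and SOD2, the mitochondrial dismutase, was lower, with a difference of -4.08 ± 0.31 (adjusted p = 2.1e-08, 2.35e-07 and 3.82e-06 by limma). Between days none passed, out of 6 tested in liver and 7 in neutrophils, beside 3.98% and 0.0% of all tested probes. At an unadjusted p under 0.05 there were 2 in liver and 0 in neutrophils, beside 17.9% and 13.4%. Catalase changed by 0.19 ± 0.10 in liver (adjusted p = 0.419 by limma) and by 0.67 ± 0.37 in neutrophils (adjusted p = 0.442). Of 10 listed gene names of selenium transport and selenoprotein synthesis, 3 were on the array and 2 were tested in each tissue. The list held SEPP1 as another name of SELENOP. SELENOP, the plasma selenium carrier, was higher in liver than in neutrophils by 5.81 ± 0.40 on day 0 (adjusted p = 2.22e-06 by limma), and it changed between days by 0.16 in liver and by 0.48 in neutrophils (adjusted p = 0.509 and 0.492 by limma).

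Across the 14 arrays, with the row trend removed and each tissue's mean subtracted, the 36 pairs of members had Pearson correlations from -0.63 (PRDX1 with GPX1) to 0.70 (PRDX1 with PRDX4). GPX1 with GPX3 had 0.56 and PRDX4 with GPX4 had 0.55. All values of a pair came from the same arrays, so the signal strength of an array enters both. By the same measure over 7173 probes, the genes most like GPX3 were FDXR (0.80), HNRNPC (0.79) and GEMIN7 (0.78), and those most like PRDX2 were MTG1 (0.95), TNFRSF21 (0.94) and INTS11 (0.92). These 14 points included 1 weak array, animal 34 on day 7, on which both PRDX2 and GPX3 had their lowest neutrophil level.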

How the data were processed

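Liver RNA of 3 animals and neutrophil RNA of 4 others, on day 7 and day 0, was labelled with Cy3 and hybridised to 14 single-colour Agilent arrays, per the labels. The intensities, deposited by the authors as Feature Extraction wrote them, are processed signals from which that program had subtracted the background of the array. Its version is 9.5.1.1 in the file headers and 9.5 in the submitters' processing notes. Raw spot and background intensities, used in 1 alternative, and the other columns (flags for outlying, saturated and dim spots, and the spot row) came from the same deposited files. The authors also deposited log2 values, which served as an alternative. The sources used here name no genome build.

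A level is the log2 processed signal less the 75th percentile of its array. Spots of the same sequence were averaged, and controls and outlier flags were excluded. Genes outside the family were named through their accession, gene number or symbol in the files, looked up by name alone in NCBI's RefSeq genes (ARS-UCD2.0), which named 6003 of 15011 probes. Catalase was named from the file's description.

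A probe was tested if all arrays of some group in the comparison had it well above background. For the difference between tissues, a group of each tissue had to meet this rule. The tests were limma fits (version 3.58.1, R 4.3.3, lmFit and eBayes), tested on simulated data beforehand. Animal was a block between days, the difference between tissues was an interaction over all 14 arrays, and liver was set against neutrophils without a block. Two-sided p-values were adjusted over all tested probes (Benjamini-Hochberg, threshold 0.05), and the SE of a change is that of its fit. The labels name the same animal on both days. Deviations of the same animal from the 2 group means correlated at 0.65, 0.31 and 0.61 for animals 58, 61 and 66 and at 0.61, 0.36, 0.03 and 0.24 for animals 25, 26, 32 and 34. The row trend is a loess curve (span 0.3) through the row medians of each array.

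Alternatives were the authors' values, processed signals put through quantile normalization, quantile normalization after normexp (offset 50), a stricter and no filter on dim probes, removal of the row trend, the middle rows alone (40 left out at each end), no block, 1 fit over all arrays, an unadjusted threshold and each animal left out. The day 7 arrays without animal 34 were added after seeing the data. All 9 members are described, and of the pathway lists up to 4 genes per tissue, first those past the threshold and then those with the largest change. Likeness was computed for PRDX2 and for GPX3, the member with the widest range. The members, lists and alternatives were chosen with earlier results of these data known. The number of animals limits the precision.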

Additional observations from a re-analysis of the deposited data

Results flagged for a closer look

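GPX1, the cytosolic glutathione peroxidase, had a higher value on day 7 in every liver (changes of 0.14, 0.16 and 0.03 in animals 58, 61 and 66) and a lower one in every neutrophil sample (changes of -0.18, -0.26, -0.27 and -1.45 in animals 25, 26, 32 and 34). The liver change minus the neutrophil change was 0.65, with an adjusted p of 0.491 in the limma interaction test and 0.424 without animal 34, so the opposite directions did not amount to a difference past the test. With the row trend removed, liver animal 66 had a change of -0.06.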

How the results depend on the processing

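Of 516 values of single members under the alternatives, 465 kept their direction and side of the threshold, 12 newly passed, 8 no longer passed and 31 changed sign. The count of members past the threshold between the liver days was 1. It was 0 without a filter on dim probes, with the row trend removed, in the middle rows alone (3 members), in 1 fit over all 14 arrays and without any 1 of the animals (0 to 0). It was 2 with normexp and quantile normalization (PRDX2 at -0.93 and PRDX5 at -0.46) and 4 at an unadjusted p under 0.05. In neutrophils the count was 0 (2 unadjusted), and 0 to 0 with an animal left out. For the difference between tissues it was 0 (3 unadjusted), and 0 to 1 with an animal left out, the 1 being PRDX2 without animal 34. Between liver and neutrophils on day 0 it was 6, with 2 of 3 members in the middle rows alone and 6 to 7 with an animal left out, the added call being GPX3 at -0.75 without animal 58. Without the replicate block the count stayed at 1 between the liver days, with PRDX2 at an adjusted p of 0.0229 by limma, and it stayed at 0 for the neutrophil days and for the difference of the tissues.

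Signs changed as follows. With the row trend removed, the liver changes became -0.35 for PRDX1, -0.0076 for PRDX3, 0.20 for PRDX4 and 0.39 for PRDX5, the neutrophil changes 0.036 for GPX4 and 0.12 for PRDX5, and the differences between tissues -0.14 for PRDX3, -0.021 for GPX3 and 0.27 for PRDX5. With normexp, the difference between tissues was -0.072 for PRDX3, and liver minus neutrophil on day 0 was -0.036 for PRDX2. With quantile normalization alone the values were -0.079 for PRDX3 and -0.0070 for GPX3 in the difference between tissues, and -0.056 for PRDX2 on day 0. On the day 7 arrays PRDX2 had -1.37, and -1.85 without animal 34. With an animal left out, values ranged from -1.67 to 0.11 for GPX3 and from -0.083 to 0.0032 for PRDX4 in liver, from -0.19 to 0.19 for PRDX5, -0.10 to 0.14 for GPX4 and -0.10 to 0.90 for PRDX2 in neutrophils, from -0.12 to 0.16 for PRDX3 and -0.77 to 1.02 for GPX3 in the difference between tissues, and from -0.11 to 0.29 for PRDX2 and -0.50 to 0.54 for PRDX6 on day 0. The causes were not tested. All members were well above background on all arrays.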
